A study of Mus musculus with 10 samples.

Results

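The transcripts described here are 10 markers of cells that were not the target of the capture. Cx3cr1, P2ry12, Csf1r, C1qa, C1qb, C1qc and Tmem119 mark microglia, and Cldn5, Flt1 and Pecam1 mark the endothelium of blood vessels. They were chosen by gene symbol, with earlier results of these data known, and were found by matching the Ensembl gene identifiers of the count files to GRCm38 symbols. All 10 were among the 54838 genes counted, and all 10 passed the filter of a CPM above 1 in at least 2 libraries, as did 16806 genes in all. CPM are counts scaled to the library's total, which was unadjusted for this filter and TMM-adjusted elsewhere.

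The libraries came from translating ribosome affinity purification (TRAP), in which ribosomes carrying an EGFP-tagged L10a protein are precipitated and their bound messenger RNA is sequenced. The mice were MC-TRAP animals, Drd2-Cre;Eef1a1 LSL eGFP-L10a/+, on the C57BL/6 strain, male and about 10 weeks old, both groups carried the same alleles, and the labels name no treatment. The groups were 5 dorsal and 5 ventral libraries of hippocampus, the dorsal tissue being the septal portion of its length and the ventral tissue the remainder without the ventral subiculum. Each library was made from the pooled tissue of 5 mice, so a replicate is a pool, and, since the hippocampi of the same mice were divided into both parts, dorsal and ventral pools share mice, although the sources do not say which pools match. Drd2-Cre drives the tag mainly in hilar mossy cells, glutamatergic neurons of the dentate gyrus, but also in some GABAergic interneurons and in neurons of the ventral subiculum. No unbound fraction or input tissue is among the libraries, so depletion of microglial or endothelial RNA by the precipitation could not be measured.

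Microglia are the resident macrophages of the brain. They sense neurons through CX3CR1 and P2RY12, depend on signals through CSF1R for survival, and make most of the C1q of the brain, the protein that opens the classical complement cascade and that is known for marking synapses for removal. Endothelial cells line the vessels, are sealed by tight junctions that hold claudin 5, and answer vascular endothelial growth factors through receptors that include FLT1. In bulk libraries of this kind, fewer cells of a type and less RNA per cell cannot be told apart.

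The promoters of 6 members, Cx3cr1, P2ry12, C1qb, C1qc, Cldn5 and Flt1, are in the RefSeq promoter table of build GRCm38.p6, which gives 250 bases before and 50 after each start. Each was searched on both strands for AGGAAGT, a form of the site bound by PU.1, the transcription factor that specifies macrophages and microglia, and for ACAGGAA, a form of the site bound by ETS factors of endothelial cells. The motifs share the letters AGGAA and can overlap. AGGAAGT stood in 4 of the 6 promoters, those of P2ry12, C1qb, C1qc and Flt1, and in 3072 of 32851 promoters overall (9.35%). ACAGGAA stood in 2 of the 6, 49 bases before the start of Cx3cr1 and 11 bases after that of C1qc, and in 2848 promoters overall (8.67%). Neither was found in the window of Cldn5. The upstream stretches that hold AGGAAGT are shown because they set a microglial receptor, a pair of C1q genes and an endothelial receptor side by side. They run 5′ to 3′ on the strand of the gene, which is the minus strand in each case, and the capitals mark the motif, which lies on the opposite strand (ACTTCCT) in C1qb and C1qc.
P2ry12, chr3:59262986-59263085: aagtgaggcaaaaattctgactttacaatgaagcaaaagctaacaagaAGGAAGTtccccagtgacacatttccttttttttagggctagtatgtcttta
C1qb, chr4:136886201-136886300: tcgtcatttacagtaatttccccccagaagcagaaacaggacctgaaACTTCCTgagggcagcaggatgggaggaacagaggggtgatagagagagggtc
C1qc, chr4:136893085-136893164: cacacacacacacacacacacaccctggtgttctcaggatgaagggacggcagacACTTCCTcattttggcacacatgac
Flt1, chr5:147726012-147726111: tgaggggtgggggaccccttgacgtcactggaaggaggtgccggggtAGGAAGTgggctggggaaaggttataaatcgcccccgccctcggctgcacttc
The motif began 52 bases before the start in P2ry12, 53 in C1qb and Flt1, and 195 in C1qc. The same letters thus preceded genes of both cell types, at almost the same distance from the RefSeq start in 3 of them. All these distances depend on the annotation. The GENCODE gene ends used for the coordinates below differ from the RefSeq starts of P2ry12, C1qb and C1qc, and match that of Flt1. Spi1, the gene of PU.1 itself, averaged 0.129 ± 0.121 CPM over the dorsal and 0.151 ± 0.136 CPM over the ventral replicates (SD, n = 5 per group), at or below 3 counts in most libraries, and was not tested.

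The libraries held 11138676 to 20594364 counts on genes, so that 3 counts, taken as the floor of detection, correspond to 0.141 to 0.282 CPM. Read pairs outside annotated genes took 21.8 to 33.9% of pairs in dorsal and 11.6 to 19.3% in ventral libraries (p = 0.00794 by a two-sided exact permutation test of the group means, which cannot go lower with 5 libraries per group), and mitochondrially encoded mRNA made up 2768 to 3517 CPM against 446 to 1254 CPM. Replicates 4 and 5 of each group lay closer to their group mean than the others, with a standard deviation over 6685 genes of 0.133 to 0.179 on the log2 scale against 0.269 to 0.387 for replicates 1 to 3. Dorsal replicates 4 and 5 lay between dorsal replicates 1 and 3 for 66.1% and 66.7% of these genes. Whether they are independent pools was not tested, and values without them are given beside the calls of the members and of the main lists. With replicates 1 to 3 alone, edgeR's quasi-likelihood test called 113 genes higher in dorsal and 49 higher in ventral libraries, of 15689 tested.

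All 10 markers were rare in the precipitates. Divided by exonic length as RPKM, the CPM per kilobase, the highest was P2ry12 at 2.81 ± 1.25 RPKM (SD, n = 10 libraries), at a percentile of 49.0 among tested genes. C1qb followed at 2.43 ± 0.913, Flt1 at 1.27 ± 0.770, Cx3cr1 at 1.02 ± 0.410, C1qc at 1.01 ± 0.712, Csf1r at 0.909 ± 0.222, C1qa at 0.904 ± 0.741, Tmem119 at 0.80 ± 0.273 and Cldn5 at 0.55 ± 0.466 RPKM. Pecam1 was lowest at 0.239 ± 0.132 RPKM, at a percentile of 6.42. Every neighbouring pair in this order lay within the sum of its standard deviations.

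Per length, the mean levels of the members lay below the medians of neurons, mossy cells, oligodendrocytes and astrocytes. The median was 1.01 RPKM over the 7 microglial members and 0.55 over the 3 endothelial members. It was 57.6 RPKM over 9 neuronal genes, 18.9 over the tested mossy cell genes, 21.2 over oligodendrocyte genes and 5.77 over astrocyte genes. Over 4 genes of oligodendrocyte precursors it was 1.13 RPKM, and P2ry12, C1qb and Flt1 lay above that value. Other microglial genes, with a median of 0.891 RPKM, and other endothelial genes, with 0.919 RPKM, were as low as the members.

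**Figure D1:**
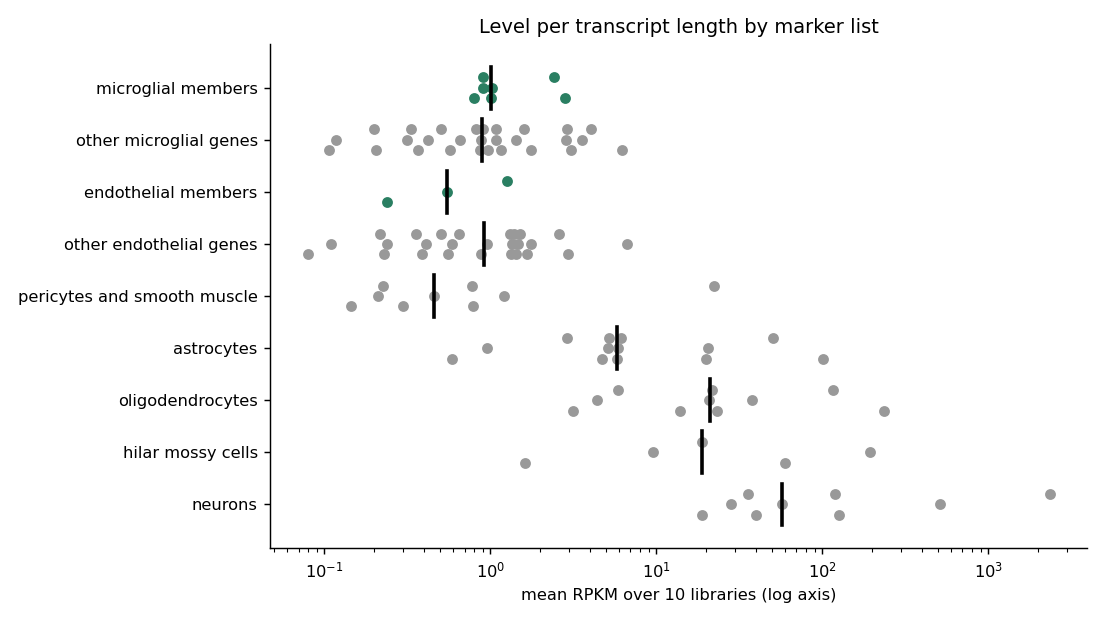
Mean RPKM over the 10 libraries for each gene that passed the filter, by marker list, on a log axis, with the list median as a black bar and members in green. The microglial members sit around a median of 1.01 RPKM and the endothelial members around 0.55, left of the neuronal median of 57.6.

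The dorsal against ventral comparison asks here how much microglial and vascular RNA each group of libraries held. C1qa and C1qc were higher in dorsal libraries, and the other 8 members did not pass the test. A call required an edgeR quasi-likelihood p that stayed below 0.05 after Benjamini-Hochberg adjustment over all 16806 tested genes, with a log2 fold change beyond 0.58 in either direction. The 2 members called higher in dorsal libraries stand against 15.9% of all tested genes called in that direction, so their share was near the background. No member was called higher in ventral libraries by edgeR, where 10.2% of tested genes were. In that direction 0 members had an unadjusted p under 0.05, and DESeq2 called 0. An unadjusted p under 0.05 was reached by 4 members, all microglial, and by 44.8% of all tested genes. With the dispersions of edgeR 3, 1 member was called higher in dorsal libraries, against 13.3% of tested genes, and 0 higher in ventral libraries, against 8.65%.

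By sign alone, 6 of the 7 microglial members had a log2 fold change above 0, P2ry12 being the exception, while all 3 endothelial members were below 0. Above 0 lay 49.6% of all tested genes, and no test was made of the signs. The median log2 fold change was 0.71 over the microglial members and -0.67 over the endothelial members, against -0.0044 over all tested genes. No member had dorsal and ventral libraries that did not overlap, as 9.81% of tested genes did with dorsal above ventral and 8.36% with ventral above dorsal.

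**Figure D2:**
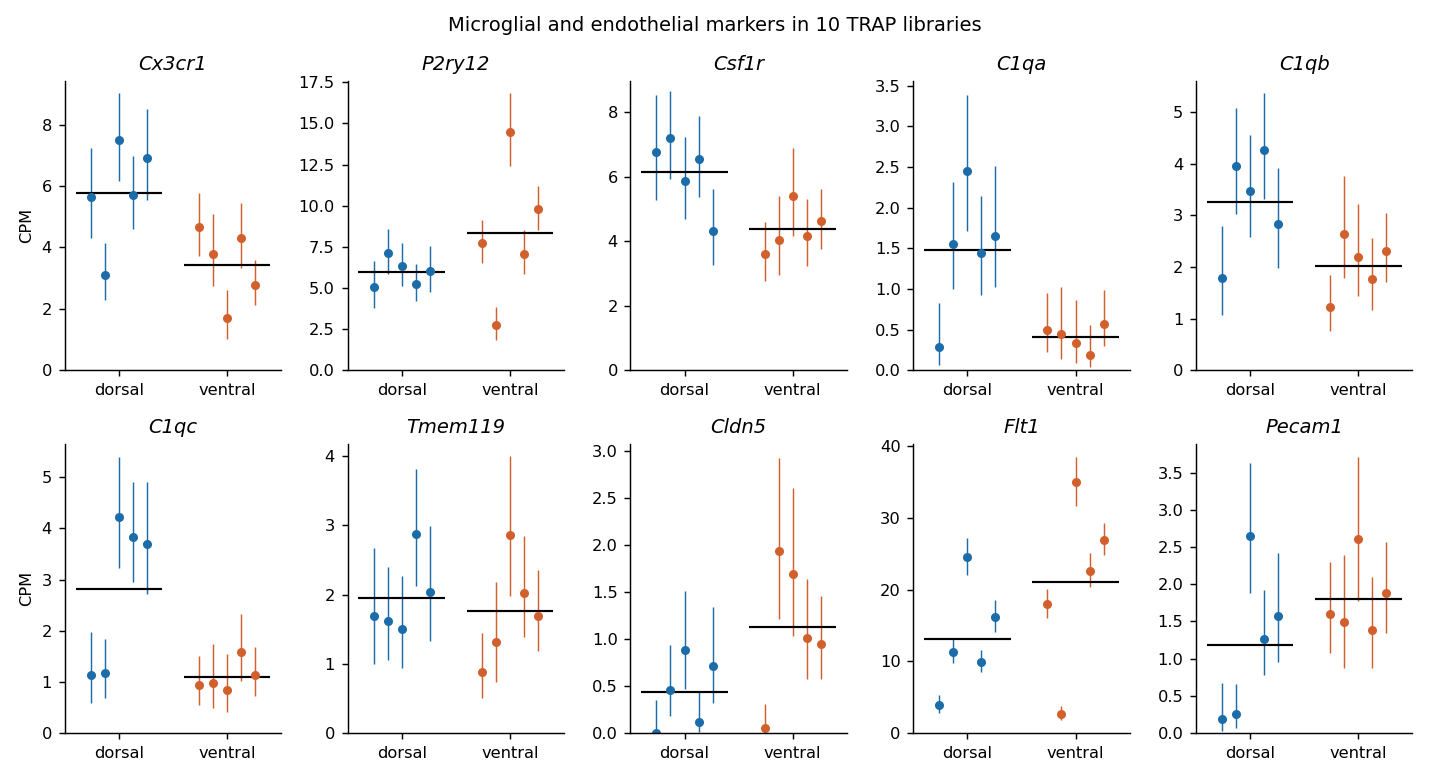
CPM of the 10 members in each library, 5 dorsal in blue and 5 ventral in orange, replicates 1 to 5 from left to right in each group, with exact 95% Poisson intervals of the counts (counting error only) and the group mean as a black line. The intervals of C1qa and Cldn5 are wide beside their means, and no member separates the groups in full.

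The C1q chains are encoded side by side on chromosome 4 of GRCm38, on the minus strand, C1qa at chr4:136895917-136898803, C1qc at chr4:136889804-136893065 and C1qb at chr4:136880129-136886187. The C1q protein is built from all 3 chains. None of the 3 genes shares exonic sequence with another annotated gene.

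C1qa, the A chain, was at 0.282, 1.56, 2.45, 1.44 and 1.65 CPM in dorsal replicates 1 to 5. In ventral replicates 1 to 5 it was at 0.498, 0.439, 0.337, 0.189 and 0.565 CPM. Dorsal replicate 1 lay inside the ventral range and the other 4 dorsal libraries lay above every ventral library. The counts behind these values were 3 to 36 per library, and the gene passed the filter through 4 dorsal and 0 ventral libraries above 1 CPM, so that its selection already leaned to the dorsal side. Its log2 fold change, dorsal over ventral, was 1.85 ± 0.49 (SE; edgeR adjusted p = 0.00823), and DESeq2 gave an adjusted p of 0.0219. With replicates 1 to 3 alone the log2 fold change was 1.82 and edgeR's adjusted p was 0.243.

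C1qc, the C chain, was at 1.13, 1.17, 4.22, 3.84 and 3.69 CPM in dorsal replicates 1 to 5. In the ventral libraries it was at 0.942, 0.967, 0.843, 1.58 and 1.13 CPM. The dorsal libraries fell apart, with replicates 1 and 2 inside the ventral range and replicates 3, 4 and 5 above it, and 2 of those 3 are the replicates that lie close to their group mean. The log2 fold change was 1.37 ± 0.45 (SE; edgeR adjusted p = 0.0300). The call was lost without dorsal replicate 3, 4 or 5 or ventral replicate 1, 3 or 5, with edgeR adjusted p of 0.0525 to 0.0850 for C1qc, with the dispersions of edgeR 3 (adjusted p = 0.0543) and with replicates 1 to 3 alone (log2 fold change 1.30, adjusted p = 0.373).

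C1qb, the B chain and the most abundant of the 3 per length, did not pass the test. It was at 1.78, 3.96, 3.47, 4.26 and 2.82 CPM in dorsal and at 1.22, 2.64, 2.19, 1.77 and 2.31 CPM in ventral replicates 1 to 5, and the groups overlapped. Its log2 fold change was 0.77 ± 0.34 (SE; edgeR adjusted p = 0.0913). It passed when trends in GC content and length were removed (log2 fold change 0.91, adjusted p = 0.0329) and without dorsal replicate 1 (0.89, adjusted p = 0.0474).

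Added up, the 3 chains came to 7.54 ± 2.77 CPM per dorsal library and 3.52 ± 0.564 CPM per ventral library (SD, n = 5 per group). The dorsal libraries ranged from 3.19 to 10.1 CPM and the ventral from 2.66 to 4.04 CPM, with dorsal replicate 1 alone inside the ventral range. Divided by exonic length, as RPKM, the share of C1qb among the 3 chains was 53.3 ± 11.4% in dorsal and 65.2 ± 7.91% in ventral libraries. By the same measure the share of C1qa was 22.5 ± 7.69% and 14.2 ± 6.02%, and that of C1qc 24.2 ± 8.13% and 20.6 ± 6.73%. All 3 shares overlapped between the groups.

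The receptors by which microglia sense their surroundings did not pass the test, and P2ry12 went against the others. Cx3cr1, at chr9:119901616-120069879, encodes the receptor of the neuronal chemokine fractalkine. It was at 5.63, 3.11, 7.48, 5.69 and 6.90 CPM in dorsal and at 4.65, 3.78, 1.69, 4.29 and 2.78 CPM in ventral replicates 1 to 5. All but dorsal replicate 2 exceeded every ventral library, and the log2 fold change was 0.71 ± 0.32 (SE; edgeR adjusted p = 0.0957). Without dorsal replicate 2 Cx3cr1 passed, at 0.88 and an adjusted p of 0.0305. Of its exonic length 1.73% is shared with Gm33858.

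Csf1r, at chr18:61100598-61132149, encodes the receptor tyrosine kinase for colony stimulating factor 1 and interleukin 34. It was at 6.76, 7.20, 5.85, 6.53 and 4.31 CPM in dorsal and at 3.60, 4.04, 5.39, 4.17 and 4.62 CPM in ventral replicates 1 to 5. Dorsal replicate 5 fell among the ventral libraries, while the other 4 dorsal libraries lay above them all. The log2 fold change was 0.51 ± 0.24 (SE; edgeR adjusted p = 0.116). Of the exonic length of Csf1r 15.1% is shared with Hmgxb3, and what this overlap did to the counts of Csf1r was not tested.

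P2ry12, at chr3:59216272-59262871, encodes the purinergic receptor that steers microglial processes toward released ADP. It was at 5.07, 7.13, 6.33, 5.22 and 6.04 CPM in dorsal and at 7.75, 2.72, 14.5, 7.07 and 9.80 CPM in ventral replicates 1 to 5. The ventral libraries held both the lowest and the highest value, with a coefficient of variation of 51.2% against 14.2% in dorsal libraries. The log2 fold change was -0.49 ± 0.32 (SE; edgeR adjusted p = 0.246). P2ry12 has the lowest GC content of the members (38.6%), and with trends in GC content and length removed it was called higher in ventral libraries (-0.93, adjusted p = 0.0287). P2ry12 lies within Med12l on the opposite strand and shares 0.354% of its exonic length with it, and the strand setting of the counting is not given in the sources used here.

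Tmem119, at chr5:113793729-113800516, encodes a transmembrane protein that separates resident microglia from other macrophages. It was at 1.69, 1.62, 1.496, 2.88 and 2.04 CPM in dorsal and at 0.886, 1.32, 2.87, 2.02 and 1.70 CPM in ventral replicates 1 to 5. The median library held 1.69 CPM in dorsal and 1.70 CPM in ventral tissue, and the log2 fold change was 0.22 ± 0.39 (SE; edgeR adjusted p = 0.698), which leaves an interval of ± 2 SE from -0.56 to 0.99.

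**Figure D3:**
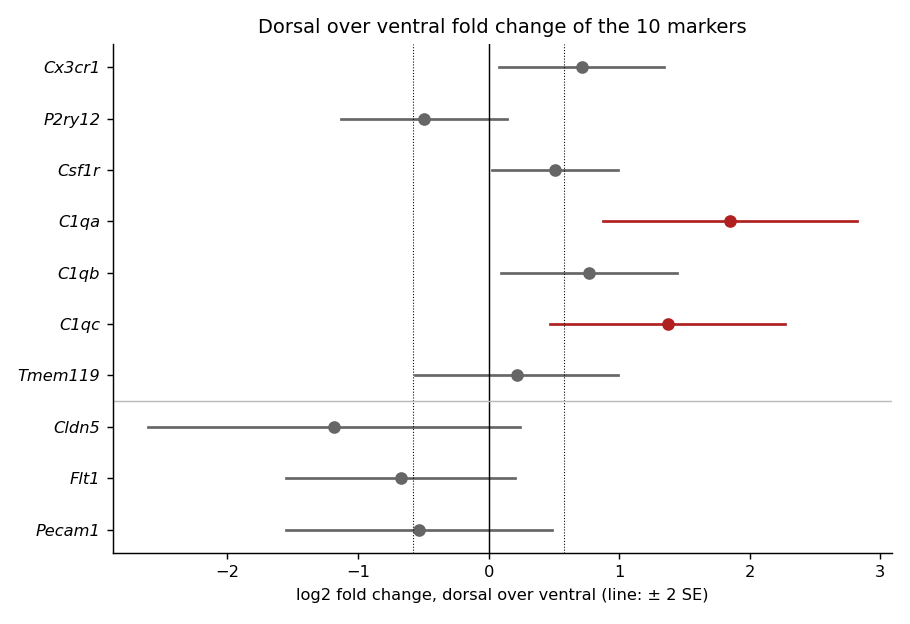
Log2 fold change, dorsal over ventral, of the 10 members with lines of ± 2 SE from edgeR, called members in red, the 0.58 threshold dotted on both sides and the endothelial members under the grey line. C1qa (1.85) and C1qc (1.37) are called, P2ry12 is the microglial gene left of 0, and the lines of Cldn5, Flt1 and Pecam1 all cross 0.

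None of the 3 endothelial members passed the test, and their levels spread widely among replicates. Flt1, at chr5:147561604-147726011, encodes a receptor that binds vascular endothelial growth factors A and B and placental growth factor. It was at 3.85, 11.3, 24.5, 9.89 and 16.2 CPM in dorsal and at 18.0, 2.64, 34.97, 22.6 and 26.9 CPM in ventral replicates 1 to 5. Dorsal replicate 1 and ventral replicate 2 stood far below the rest of their groups, and replicate 3 was the highest in both. The highest value was 6.36 times the lowest in dorsal and 13.3 times the lowest in ventral libraries, and the counts of 30 to 572 make counting error small beside this spread. The log2 fold change was -0.67 ± 0.44 (SE; edgeR adjusted p = 0.251).

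Cldn5, at chr16:18776847-18778262, encodes the main tight junction protein of the blood-brain barrier. It was at 0, 0.454, 0.884, 0.120 and 0.706 CPM in dorsal and at 0.0554, 1.93, 1.69, 1.01 and 0.942 CPM in ventral replicates 1 to 5. The 0 of dorsal replicate 1 allows a level of up to 0.282 CPM at 3 counts, or 0.346 CPM by the exact 95% Poisson interval. Dorsal replicate 4, with 2 counts, and ventral replicate 1, with 1 count, were also under their floors. Cldn5 passed the filter through 3 ventral and 0 dorsal libraries above 1 CPM. The log2 fold change was -1.18 ± 0.71 (SE; edgeR adjusted p = 0.205), and leaving out each library in turn gave -1.61 to -0.89.

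Pecam1, at chr11:106654217-106750628, encodes an adhesion molecule of endothelial junctions that platelets and some leukocytes also carry. It was at 0.188, 0.259, 2.65, 1.26 and 1.57 CPM in dorsal and at 1.61, 1.49, 2.61, 1.39 and 1.88 CPM in ventral replicates 1 to 5. The ventral libraries lay close together, with a coefficient of variation of 27.4%, while dorsal replicates 1 and 2 were near the floor and dorsal replicate 3 was as high as any ventral library. Dorsal replicates 1 and 2 were thus the lowest of their group in Pecam1 as in C1qc. The log2 fold change was -0.53 ± 0.51 (SE; edgeR adjusted p = 0.440).

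Among the endothelial members, the dorsal replicates had the same order in Flt1 and Cldn5, from replicate 1 at the bottom through 4, 2 and 5 to 3 at the top, and Pecam1 was also lowest in replicate 1 and highest in replicate 3. In ventral replicate 2 Flt1 was at its lowest (2.64 CPM), Cldn5 at its highest (1.93 CPM) and Pecam1 near its ventral mean (1.49 CPM). P2ry12 shared the ventral pattern of Flt1, lowest in replicate 2 and highest in replicate 3 of the ventral libraries, which Cx3cr1, lowest in replicate 3, did not.

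Summed over the 7 microglial members, the libraries held 27.3 ± 3.51 CPM in dorsal (22.3 to 31.3) and 21.5 ± 4.39 CPM in ventral tissue (15.9 to 27.8; SD, n = 5 per group). Summed over the endothelial members, they held 14.8 ± 9.01 CPM in dorsal (4.04 to 28.0) and 24.0 ± 12.3 CPM in ventral libraries (6.06 to 39.3). Both sums overlapped between the groups, and most of the endothelial sum was Flt1. The ratio of microglial to endothelial counts was 1.12 to 5.53 in dorsal and 0.708 to 2.62 in ventral libraries, highest in dorsal replicate 1 and ventral replicate 2, the libraries lowest in Flt1.

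**Figure D4:**
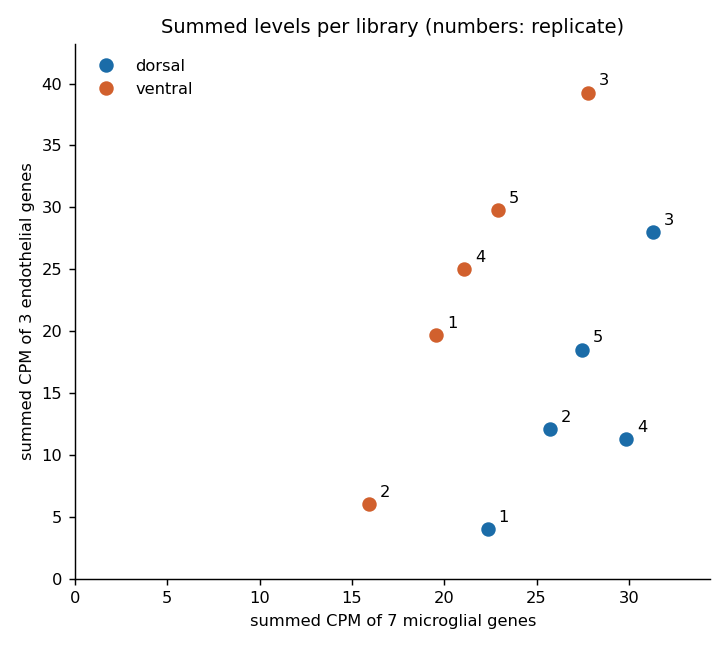
Summed CPM of the 3 endothelial members against the 7 microglial members, 1 point per library, labelled with its replicate number, dorsal in blue and ventral in orange. The endothelial sum spans 4.04 to 39.3 CPM and the microglial sum 15.9 to 31.3 CPM, and the groups overlap on both axes.

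Over the 10 libraries, the centred log2 level of single members (log2 of CPM plus 0.5, less the group mean) followed the centred log2 of these sums unevenly. With the microglial sum, Pearson's r was highest for P2ry12 (0.82) and Tmem119 (0.62), lay between 0.27 and 0.43 for Csf1r and the C1q chains, and was -0.34 for Cx3cr1. With the endothelial sum it was 0.98 for Flt1, 0.70 for Pecam1 and 0.28 for Cldn5. The genes most like the microglial sum among 16806 were Fgfrl1 (0.98), Plxnb2, Tanc1, Usp35 and Gm12371, and those most like the endothelial sum were Mcur1 (0.98), Gm47863, Pigc, Scap and Chst9. None of these stands on a marker list used here. The values share libraries and depth, each member is part of its own sum, and with 10 libraries and 16806 genes the highest values are picked from many, so they are given as description.

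Among 28 other microglial genes that were tested, of 30 listed, 7 were called higher in dorsal and none in ventral libraries by edgeR. Over all tested genes 15.9% were called in the dorsal direction, and the list's median log2 fold change was 0.62. In the ventral direction 0 had an unadjusted p under 0.05 and DESeq2 called 0. The 7 were Siglech, Ctss and Tyrobp, and also Inpp5d, Fcrls, Laptm5 and Hpgds, which are named after their values were seen.

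Siglech, a lectin specific to microglia in the brain, averaged 5.80 ± 1.77 CPM over dorsal and 0.786 ± 0.0712 CPM over ventral replicates (SD, n = 5 per group), with a log2 fold change of 2.87 ± 0.35 (SE; edgeR adjusted p = 6.85e-05). Like C1qa, Siglech passed the filter through the dorsal libraries alone, 5 of them and 0 ventral libraries being above 1 CPM. Ctss, the lysosomal protease cathepsin S, was at 11.5 ± 0.80 and 5.41 ± 0.370 CPM, with a log2 fold change of 1.08 ± 0.19 (SE; edgeR adjusted p = 0.00096). In Siglech, Ctss, Tyrobp and Inpp5d every dorsal library lay above every ventral library. Such a separation held for none of the members and for 9.81% of all tested genes. Tyrobp, the adaptor protein of TREM2, had a log2 fold change of 0.97 ± 0.33 (SE; edgeR adjusted p = 0.0372), a call it lost without any of 7 libraries, dorsal replicate 2, 4 or 5 or ventral replicate 1, 2, 4 or 5 (edgeR adjusted p of 0.0533 to 0.0801). Fcer1g, a related adaptor, did not pass (0.33 ± 0.53, adjusted p = 0.664), and its sign turned without dorsal replicate 3. On replicates 1 to 3 alone edgeR called 0 of these other microglial genes, 4 having an unadjusted p under 0.05 on the dorsal side, while the list's median log2 fold change was 0.89. In that fit Siglech stood at 2.88 (edgeR adjusted p = 0.0512), Ctss at 1.08 (0.165) and Fcrls at 2.11 (0.225).

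Signs within the microglial list were mixed. Of the 28, 20 had a log2 fold change above 0 and 8 below, among them Aif1, which encodes the microglial marker IBA1 (-1.28, adjusted p = 0.195), and Cd68 (-0.86, adjusted p = 0.186). Summed, the other microglial genes took 127 to 137 CPM in dorsal libraries and 78.3 to 94.1 CPM in ventral libraries. Of 3 tested markers of border macrophages, the relatives of microglia at vessels and meninges, Cd163 was called higher in dorsal libraries by edgeR (2.01 ± 0.75 SE, adjusted p = 0.0446) but not by DESeq2, nor without any library other than dorsal replicate 1 or ventral replicate 2 (Cd163 edgeR adjusted p of 0.0722 to 0.118), and stood at 1.31 with replicates 1 to 3 alone (adjusted p = 0.535). Lyve1 (0.38, adjusted p = 0.691) and Stab1 (1.16, adjusted p = 0.210) did not pass, and the other 5 of that list, Mrc1 and Pf4 among them, were too low to test. Summed, that list came to 2.16 to 8.64 CPM in dorsal libraries and 1.35 to 4.32 CPM in ventral libraries.

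**Figure D5:**
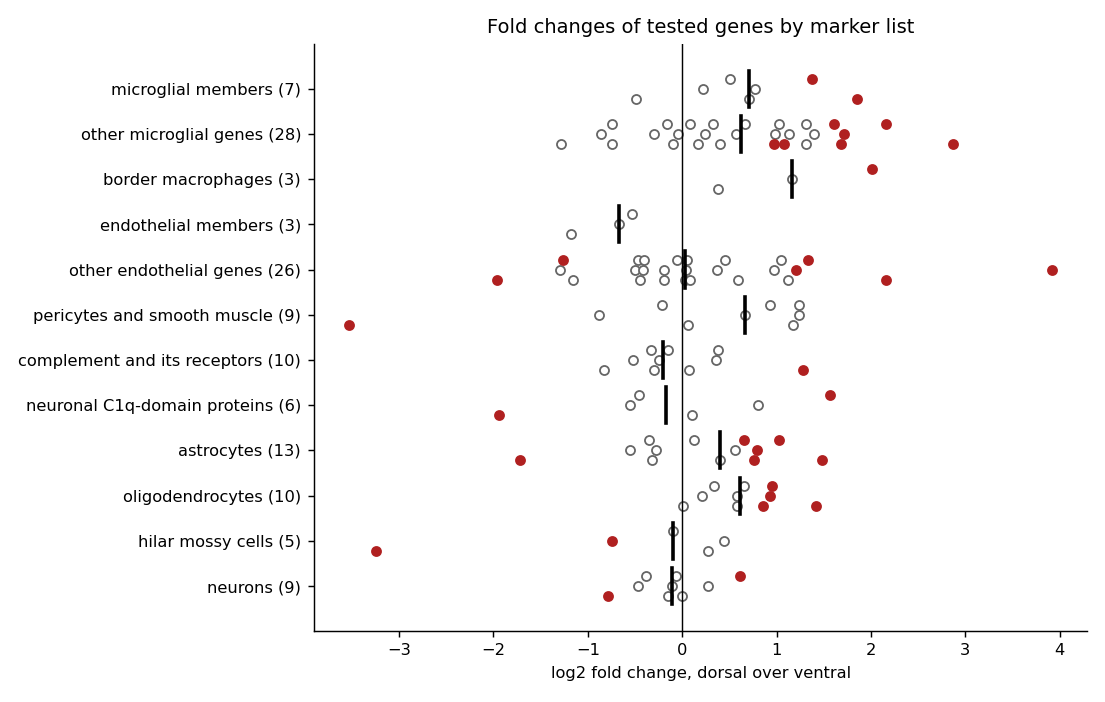
Log2 fold change, dorsal over ventral, of each tested gene by marker list, called genes in red, list medians as black bars and the number of tested genes in parentheses. The median is 0.71 for the microglial members, 0.62 for other microglial genes, -0.67 for the endothelial members and 0.03 for other endothelial genes.

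Of the complement genes downstream of C1q and their receptors, 16 were listed and 10 were high enough to test, and edgeR called C4b, which C1q's proteases cleave, higher in dorsal libraries (1.28 ± 0.40 SE, adjusted p = 0.0251) and none higher in ventral libraries, where 1 had an unadjusted p under 0.05 and DESeq2 called 0. The call of C4b was lost without dorsal replicate 3 or 4 or ventral replicate 4 (edgeR adjusted p of 0.0554 to 0.0644) and with replicates 1 to 3 alone (1.51, edgeR adjusted p = 0.257). The regulators Cd59a (-0.15, adjusted p = 0.769) and Cd55 (-0.83, adjusted p = 0.0991) and the receptor C3ar1 (0.07, adjusted p = 0.923) did not pass. C3, the central component, stayed at 0.224 ± 0.234 and 0.620 ± 1.08 CPM.

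Neurons make their own secreted proteins with a C1q domain, which act at synapses and share that fold with the C1q chains. Of 6 such genes, C1ql1 was called higher in dorsal (1.56 ± 0.48 SE, edgeR adjusted p = 0.0233) and Cbln2 higher in ventral libraries (-1.94 ± 0.41 SE, edgeR adjusted p = 0.00335). C1ql3, the highest at 49.2 ± 2.88 and 45.6 ± 8.46 CPM, did not pass (0.11, adjusted p = 0.576), nor did C1ql2 (0.80, adjusted p = 0.0767) or Cbln4 (-0.45, adjusted p = 0.123), and 64.2% of the exonic length of C1ql3 is shared with Gm37811 and Gm37824. C1ql1 lost its call without dorsal replicate 3 or 4 or ventral replicate 5 (edgeR adjusted p of 0.0545 to 0.0684). With replicates 1 to 3 alone neither was called, C1ql1 at 1.51 (edgeR adjusted p = 0.316) and Cbln2 at -1.56 (0.232).

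The ligands of the member receptors were mostly above the receptors in level. Per length, Cx3cl1, which encodes fractalkine, stood at 19.9 ± 3.12 RPKM (SD, n = 10) against 1.02 RPKM for its receptor Cx3cr1, and Il34 at 6.92 ± 1.27 RPKM against 0.909 RPKM for Csf1r. Cx3cl1 (0.17, edgeR adjusted p = 0.358) and Il34 (-0.22, adjusted p = 0.3798) did not pass the test between the groups. Csf1, the other ligand of CSF1R, was called higher in dorsal libraries (0.89 ± 0.29 SE, edgeR adjusted p = 0.0307), with a mean of 6.56 against 3.57 CPM, and lost the call without dorsal replicate 3, 4 or 5 or ventral replicate 5 (edgeR adjusted p of 0.0522 to 0.0863) and with replicates 1 to 3 alone (1.06, edgeR adjusted p = 0.303).

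Among the ligands of FLT1, Pgf was called higher in ventral libraries (-1.26 ± 0.45 SE, edgeR adjusted p = 0.0440), a call lost without any library except ventral replicate 1 (Pgf edgeR adjusted p of 0.0570 to 0.106) and with replicates 1 to 3 alone (-1.37, adjusted p = 0.353). Vegfb had an adjusted p of 0.0391 but a log2 fold change of -0.57, short of the fold threshold, and Vegfa did not pass (0.47, adjusted p = 0.0991).

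Among 26 tested endothelial genes other than the members, of 30 listed, 4 were called higher in dorsal and 2 higher in ventral libraries, with a median log2 fold change of 0.03. Against 15.9% and 10.2% of all tested genes, these counts were near the background. Of the 26, 14 had a log2 fold change above 0 and 12 below. The dorsal calls were Erg, Vwf, Ocln and Podxl, the last 3 named after their values were seen, and the ventral calls were Ly6a and Ctla2a, the latter named likewise and above 1 CPM in 3 ventral and 0 dorsal libraries. Erg, a transcription factor of the ETS family, averaged 2.55 ± 2.05 CPM over dorsal and 0.140 ± 0.134 CPM over ventral replicates, 3 of which were below the floor (3.92 ± 0.80 SE, edgeR adjusted p = 0.00147). It passed the filter through 3 dorsal and 0 ventral libraries above 1 CPM, and with replicates 1 to 3 alone it was too low to test. Ly6a, a surface protein of vessels, went the other way (-1.26 ± 0.36 SE, edgeR adjusted p = 0.0172), but not without dorsal replicate 4 or ventral replicate 5 (edgeR adjusted p of 0.0549 and 0.0584) or with replicates 1 to 3 alone (-0.77, edgeR adjusted p = 0.538).

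Kdr, the other receptor of vascular endothelial growth factor A, was at 1.98 ± 0.494 and 1.93 ± 0.952 CPM, with a log2 fold change of 0.06 (adjusted p = 0.928), and was named after its values were seen. Slc2a1, the glucose transporter of the barrier (0.04, adjusted p = 0.932), and Plvap, a protein of leaky vessels (-0.40, adjusted p = 0.262), did not pass. Summed, the other endothelial genes held 79.0 to 165 CPM in dorsal libraries and 66.5 to 152 CPM in ventral libraries. With replicates 1 to 3 alone edgeR called 0 of the 22 that could be tested, 1 having an unadjusted p under 0.05.

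Cells of the vessel wall under the endothelium were followed by 9 tested genes of pericytes and smooth muscle. EdgeR called 0 higher in dorsal libraries, where 2 had an unadjusted p under 0.05 and DESeq2 called 0. Tagln was called higher in ventral libraries (-3.53 ± 1.02 SE, edgeR adjusted p = 0.0128), and 67.9% of its exonic length is shared with Gm48529 and Pcsk7. It passed the filter through 3 ventral and 0 dorsal libraries above 1 CPM, and without ventral replicate 1 Tagln had an edgeR adjusted p of 0.0635. Rgs5 (0.07, adjusted p = 0.701), Acta2 (1.23, adjusted p = 0.0755) and Vtn (0.67, adjusted p = 0.371) did not pass. Summed, the list held 95.8 to 152 CPM in dorsal libraries and 106 to 130 CPM in ventral libraries, most of it Rgs5.

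Beside these stand the markers of oligodendrocytes and astrocytes, whose summed levels did not overlap between the groups. The sum of the other microglial genes did not overlap either. That of the oligodendrocyte precursors did, with 25.6 to 58.8 CPM in dorsal and 22.9 to 37.2 CPM in ventral libraries. Of 10 tested oligodendrocyte genes 4 were called higher in dorsal libraries, where 15.9% of all tested genes were, with a summed level of 2668 to 3186 CPM against 1034 to 1957 CPM. Of 13 astrocyte genes 5 were called higher in dorsal and 1 higher in ventral libraries, with 2087 to 2371 CPM against 956 to 1584 CPM. Of these 13, 5 had a log2 fold change below 0. In the fit of replicates 1 to 3, 1 oligodendrocyte gene and 1 astrocyte gene were called higher in dorsal libraries. The 9 neuronal genes went the other way in sum, with 17408 to 22634 CPM in dorsal libraries and 22377 to 26876 CPM in ventral libraries. So did the 6 listed genes of mossy cells, whose sums did not overlap, at 520 to 588 CPM in dorsal and 1138 to 1388 CPM in ventral libraries. Of the 5 tested mossy cell genes, 2 had a log2 fold change above 0 and 3 below. The part of these shifts in the calls of C1qa and C1qc was not tested.

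The share of read pairs outside genes also separated the groups in full. With that share as a covariate, C1qa had a log2 fold change of 0.60 ± 0.90 (SE; edgeR adjusted p = 0.726) and C1qc of 0.94 ± 0.87 (adjusted p = 0.551). The endothelial members stood further below 0, Flt1 at -2.54 ± 0.77 (SE; edgeR adjusted p = 0.0582), Cldn5 at -4.16 ± 1.36 (0.0665) and Pecam1 at -2.17 ± 1.01 (0.206). By edgeR 0 members were called in either direction, and 3 had an unadjusted p under 0.05 on the ventral side. Since the share differed between all dorsal and all ventral libraries, its part and that of the region cannot be told apart.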

How the data were processed

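TRAP RNA was sequenced from 5 dorsal and 5 ventral hippocampal libraries. The authors amplified the RNA with a kit for small amounts, sequenced 50 bp paired ends, aligned them to GRCm38 with STAR and counted them with HTSeq (versions 2.5.2b and 0.7.2, from the submitters' processing notes). The values deposited by the authors are raw counts of each Ensembl gene, whole numbers without normalization or filter. The annotation release and strand setting are not given in the sources used here. HTSeq's summary lines were left out of library sizes.

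Tests used edgeR 4.0.16 under R 4.3.3. Genes above 1 CPM in at least 2 libraries were kept, libraries were scaled by TMM, and dorsal was compared with ventral by the quasi-likelihood test, with its newer bias-adjusted dispersions, and Benjamini-Hochberg adjustment. CPM are TMM-scaled, except in the filter and in the numbers of libraries above 1 CPM, which used unadjusted totals. RPKM are the TMM-scaled CPM divided by the exonic length in GENCODE M21, which matched 54723 of 54838 genes. Groups and replicate numbers came from the sample titles. The p-values measure the spread between libraries, each taken as a separate pool. Whether the replicates that lie close to their group mean are independent pools was not tested. Precision is that of the counts: intervals are exact 95% Poisson intervals and, like the floor of 3 counts, cover counting error only, since the RNA was amplified and no molecular identifiers were counted. Within groups all libraries differed by more than counting error (chi-square per degree of freedom 4.36 to 45.1). The lowest value was that of dorsal replicates 4 and 5. Since the RNA was amplified, this measure cannot tell whether libraries were made from the same RNA.

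The members and the marker lists were chosen with earlier results of these data known. The genes named were every member, every ligand of a member receptor, the 3 genes of highest RPKM and the 2 of smallest adjusted p in the lists of microglia, endothelium, vessel wall, border macrophages, complement and C1q-domain proteins, and the 5 genes most like each sum. The same rule also covered lists of other cell types, which are given here by counts and sums, including fibroblasts (2 of 3 tested called higher in dorsal and 1 higher in ventral libraries), blood cells (0 of 4 by edgeR, 1 with an unadjusted p under 0.05, 0 by DESeq2), oligodendrocyte precursors (2 of 4 higher in dorsal) and mossy cells (2 of 5 higher in ventral). Over all tested genes 15.9% were called higher in dorsal and 10.2% higher in ventral libraries. With replicates 1 to 3 alone, edgeR called 0 fibroblast, blood and precursor genes, and 1 mossy cell gene, higher in ventral libraries. In that fit 1 fibroblast and 1 precursor gene had an unadjusted p under 0.05. Summed, the fibroblast genes held 4.67 to 16.0 CPM in dorsal and 14.4 to 21.3 CPM in ventral libraries.

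Alternatives were other scalings and filters, DESeq2 1.42.0, the likelihood-ratio test, other thresholds, protein-coding genes alone, GC and length offsets (mgcv 1.9.3), the replicate number as a block and each library left out. The dispersions of edgeR 3, replicates 1 to 3 alone and a covariate (the percentage of pairs on no gene) were added after the data were seen.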

Additional observations from a re-analysis of the deposited data

Results flagged for a closer look

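In 36 groups of 5 libraries examined, a single library stood apart from the other 4 in 3, and chance alone gives about 5% of groups. Csf1, a ligand of CSF1R, was at 10.8 CPM in dorsal replicate 3, against 4.23 to 6.05 CPM in the other dorsal libraries. Vegfa was at 17.1 CPM in dorsal replicate 1, against 24.6 to 26.3 CPM in the others. Vegfb was at 23.6 CPM in dorsal replicate 2, against 17.7 to 19.1 CPM in the others.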

How the results depend on the processing

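The 2 members called higher in dorsal libraries became 1 with the filter in at least 5 libraries. That filter left C1qa untested, while C1qc kept its call (edgeR adjusted p = 0.0257). The number called was 1 with the dispersions of edgeR 3, and 1 to 3 with 1 library left out. The count fell to 0 with replicates 1 to 3 and with the covariate, where 1 and 0 members had an unadjusted edgeR p under 0.05 on the dorsal side. With the covariate 3 members had such a p on the ventral side. No member was called higher in ventral libraries except P2ry12, 1 call with GC and length offsets and 1 with the replicate block and these offsets (log2 fold change -0.88, adjusted p = 0.0466). Over all genes, protein-coding genes alone gave 1712 dorsal calls, replicates 1 to 3 gave 113 dorsal and 49 ventral calls, and the covariate gave 967 and 394. With 1 library left out these counts were 2113 to 2727 dorsal and 1244 to 1883 ventral. Other microglial genes had 4 dorsal calls with the covariate, 0 with replicates 1 to 3, and 5 to 8 dorsal and 0 to 2 ventral calls with 1 library left out. Other endothelial genes had 2 dorsal calls with the stricter filter and with the dispersions of edgeR 3, and 0 with replicates 1 to 3 and with the covariate. They had 1 ventral call with the stricter filter, DESeq2, the likelihood-ratio test and the dispersions of edgeR 3, and 0 with replicates 1 to 3 and the covariate. With 1 library left out they had 2 to 5 dorsal and 0 to 3 ventral calls. The summed difference, dorsal minus ventral, with 1 library left out was 4.51 to 7.47 CPM for microglial and -13.7 to -5.41 CPM for endothelial members. The endothelial members' median log2 fold change was -1.05 without dorsal replicate 3 and -2.54 with the covariate.

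No member changed sign in 258 alternative values, of which 242 also left it on the same side of the threshold. Not all were refits, since dropping the fold threshold and taking the log2 ratio of mean CPM plus 1 kept the main fit. Dropping the threshold leaves the sign as it was. Among 33 other named genes the sign turned in 27 of 852 such values. With the covariate this held for Csf1 (-0.049), Fcer1g (-0.79), Cd59a (1.61), C3ar1 (-0.61), Cbln4 (0.43), Slc2a1 (-1.29), Rgs5 (-0.34), Acta2 (-0.68), Vtn (-0.044), Tagln (1.70), Lyve1 (-0.70) and Stab1 (-0.29). With replicates 1 to 3 it held for Il34 (0.064), and with GC and length offsets for C3ar1 (-0.065) and Rgs5 (-0.14). With 1 library left out, the log2 fold change ran from -0.075 to 0.67 for Fcer1g, -0.54 to 0.079 for Cd59a, -0.16 to 0.38 for C3ar1 and -0.19 to 0.25 for Slc2a1, turning in each case without dorsal replicate 3 and in 1 or 2 further cases for Cd59a, C3ar1 and Slc2a1. The causes were not tested.

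The labels give both groups replicate numbers 1 to 5. The deviations of same-numbered libraries correlated by -0.05 to 0.18, so the numbers were not taken as pairs. The replicate block gave 2710 dorsal and 1732 ventral calls over all genes and 2 dorsal members, and it turned the sign of Slc2a1 (-0.035, and -0.012 with GC and length offsets) and, with these offsets, of Rgs5 (-0.16). At 3 to 36 counts of C1qa and 0 to 22 of Cldn5 per library, depth limits both. Other scalings shifted the median of all genes by at most 0.04 on the log2 scale.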
